A study of Mus musculus with 6 samples.

Results

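The genes described here are ATOH8, UNC5B, IRF5 and MRGPRF, which together with CTGF, GSE1 and probes of the ID family differed most between BMP4-treated and untreated cultures of the murine stromal cell line PA6 after 3 h. They were taken by their gene names in the deposited signal table, where each has 1 probe, so that 4 of 30854 gene names are involved (ILMN_2638548 for ATOH8, ILMN_2523316 for UNC5B, ILMN_2621752 for IRF5 and ILMN_2760254 for MRGPRF). These names had been chosen from the difference between BMP4-treated and untreated arrays, and their values in that comparison are therefore given as a description, without a test. Confluent PA6 monolayers spent 3 h in serum-free medium, either without any growth factor (-GFs), with recombinant FGF2 at 20 ng/ml or with recombinant BMP4 at 10 ng/ml, the dose in the sample labels (the methods on the co-cultures state a lower dose of BMP4). Each group had 2 arrays, and each biological replicate consisted of 1 well per condition. The cells are 1 line without any genetic change, cultured here without the ES cells for which they serve as feeder layer in the study.

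BMP4 binds serine/threonine kinase receptors, which phosphorylate SMAD1, SMAD5 and SMAD9. Together with SMAD4 these proteins enter the nucleus and activate target genes, among which the ID genes are the best known. FGF2 binds tyrosine kinase receptors and acts largely through the ERK pathway. Of the 4 genes, ATOH8 encodes a basic helix-loop-helix transcription factor of the atonal family and IRF5 an interferon regulatory factor that acts downstream of Toll-like receptors, while UNC5B encodes a netrin receptor of neurons and vessels and MRGPRF an orphan receptor of the Mas-related G protein-coupled family.

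The arrays were comparable in brightness, with median intensities from 153.4 to 168.1 and between 15509 and 16459 probes detected per array (detection p under 0.05, against the negative control beads). Intensities were normalized with a cubic spline and converted to log2. In all 11872 genes were tested, and the 4 genes were among them. Markers of stromal cells were measured on all arrays for 8 of 9 genes, COL1A1, PDGFRA and CXCL12 included, and KITL on none. The summed normalized intensity of this list was 88988 to 96481 in -GFs medium, 72314 to 77014 with FGF2 and 83217 to 99693 with BMP4. CXCL12 and VIM, the brightest of the list, made up the largest part of it. The FGF2 sums did not overlap those in -GFs medium. With 2 arrays per group this says little, as the same held for 53.7% of single genes. With FGF2, 7 of the 8 stromal markers tested were lower in value, without a call, and the part of this in the FGF2 values below was not tested. Since RNA of whole wells was hybridized, fewer cells of a type and less RNA per cell cannot be told apart. Nothing states that the replicates came from separate thaws or passages, so that p-values measure the spread between these wells.

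The 4 genes followed 2 patterns. ATOH8 and IRF5 were higher with BMP4 but not with FGF2 than in -GFs medium, whereas UNC5B was higher and MRGPRF lower with either factor. In the selecting comparison, limma with the replicate number as a block called 10 gene names (log2 fold change beyond 1 in either direction, with an adjusted p under 0.1), which is 0.0842% of all genes. Without the block limma called 0.00842%, namely ID1 alone, and none of the 4 genes. By size, out of all genes tested, the BMP4 differences ranked 6 (ATOH8), 7 (UNC5B), 8 (MRGPRF) and 10 (IRF5). Just inside the threshold on the fold were IRF5 and CTGF, both with a log2 difference of 1.11. Just outside were ID4 (0.94), LOC670044 (0.87) and 6330505N24RIK (0.85).

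**Figure D1:**
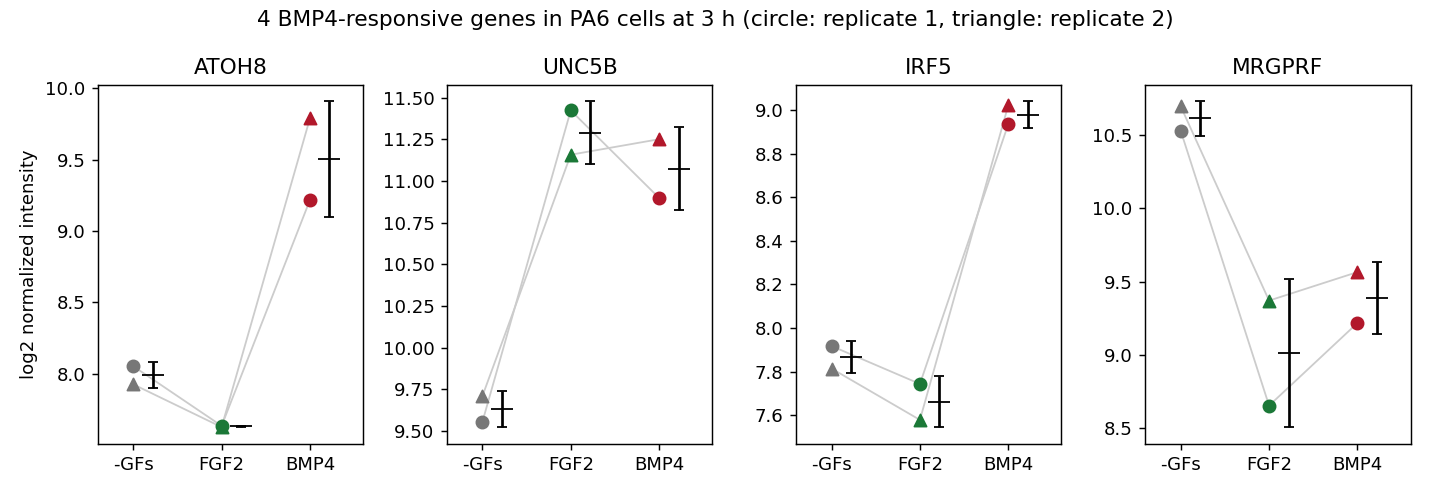
Log2 normalized intensity of ATOH8, UNC5B, IRF5 and MRGPRF on each of the 6 arrays, by condition. Circles are replicate 1 and triangles replicate 2, grey lines join arrays with the same replicate number, and black bars are the mean ± SD (n = 2). Each panel has its own vertical axis, which does not start at 0. For ATOH8 and IRF5 the BMP4 arrays lie above and the FGF2 arrays below those in -GFs medium, while FGF2 and BMP4 arrays overlap for UNC5B and MRGPRF.

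ATOH8, which is known as a target of BMP signaling in liver cells, had intensities before normalization of 297.8 and 230.9 without growth factors, 197.4 and 196.4 after FGF2, and 563.8 and 896.9 after BMP4. Both BMP4 arrays were above all others and both FGF2 arrays below all others, so that no groups overlapped. The FGF2 values were close to the limit of detection, with detection p-values of 0.03205 and 0.03953. The lowest detected probes on those arrays had intensities of 190.5 and 192.7. The log2 normalized intensity was 7.99 ± 0.09 (SD, n = 2) in -GFs medium, 7.63 ± 0.01 (SD, n = 2) with FGF2 and 9.50 ± 0.40 (SD, n = 2) with BMP4. The BMP4 level was thus 2.86-fold that in -GFs medium, with a log2 difference of 1.52, made of 1.17 between the arrays of replicate 1 and 1.87 between those of replicate 2. The size of this difference depended on the BMP4 array taken, since it was 1.23 without BMP4 replicate 2 and 1.80 without BMP4 replicate 1.

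With FGF2 the log2 difference of ATOH8 was -0.36 (95% interval -0.86 to 0.14, adjusted p = 0.356 in limma over all genes tested), which did not pass the threshold. With the background-subtracting normalization neqc the difference was -0.85 (adjusted p = 0.147 in limma), again without a call. Over all processing choices and left-out arrays the adjusted p in limma lay between 0.0562, with neqc and the replicate block together, and 0.627, and the threshold on the fold was never passed. Between both treatments the log2 level was lower with FGF2 by 1.58 in replicate 1 and by 2.17 in replicate 2, and this difference was not tested because the BMP4 arrays had served to choose the gene.

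IRF5, best known from myeloid cells and B cells, was dim on all arrays. Its intensities were 266.5 and 215.3 without growth factors, 213.8 and 190.6 after FGF2, and 464.2 and 525.6 after BMP4. It was not detected on the array of FGF2 replicate 2, where its detection value was 0.05556 against the limit of 0.05. The 3 groups did not overlap, in the order BMP4, -GFs, FGF2. The log2 normalized intensity was 7.87 ± 0.07 (SD, n = 2) in -GFs medium and 8.98 ± 0.06 (SD, n = 2) with BMP4, a 2.16-fold difference with log2 values of 1.02 and 1.21 within the replicates. With FGF2 it was 7.66 ± 0.12 (SD, n = 2), lower than in -GFs medium by 0.20 on the log2 scale (95% interval -0.56 to 0.15, adjusted p = 0.460 in limma), short of the threshold, and by 0.50 with neqc (adjusted p = 0.263).

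The BMP4 values of IRF5 were read against markers of myeloid cells, in which the gene is mostly studied. Of 9 leukocyte and macrophage markers, 5 were detected on no array, namely PTPRC, ADGRE1, C1QA, CD68 and ITGAM, and 2 on all arrays, CD14 and LYZ2. Their summed normalized intensity was 3340 to 3375 without growth factors, 3039 to 3108 after FGF2 and 3102 to 3240 after BMP4. CD14 made up the largest part of it, with intensities before normalization from 1557.3 to 2300.8, and the undetected markers add background signal. The sum therefore does not show whether the share of myeloid cells changed, which was not tested. Of 8 family members other than IRF5, 5 were tested (IRF1, IRF2, IRF3, IRF7 and IRF9), with BMP4 differences on the log2 scale from -0.31 to 0.23. Limma called 0 of them for BMP4 and 0 for FGF2, and at an unadjusted p under 0.05 it found 0 and 1 (1 and 3 with the replicate block, and again no call). Over all genes, 1.81% (BMP4) and 23.3% (FGF2) had such a p in limma, and 7.02% and 40.6% with the block, and counts of this kind are to be read against these shares. Of 19 genes upstream or downstream of IRF5, such as MYD88, IRAK1, TRAF6 and CCL5, 8 were tested. Their median log2 difference was 0.10 with BMP4 and 0.00 with FGF2, with 0 calls in limma for either factor and 0 and 1 genes at an unadjusted p under 0.05 (0 and 2 with the block, without a call).

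As most of these genes were higher with BMP4, their promoters were searched on both strands for the letters bound by SMAD proteins, in windows from 250 bases before to 50 bases after a transcription start in RefSeq (GRCm38.p6). This start is the outermost base of the gene for Unc5b, but lies 203 bases inside the annotated gene for Atoh8 and 495 bases inside it for Irf5. Windows were at hand for Atoh8, Unc5b and Irf5, and not for Mrgprf. The motifs, chosen with the array values known, were the GC-rich motif GGCGCC of SMAD1 and SMAD5, the SMAD box GTCT, and their combination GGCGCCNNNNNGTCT, which is the BMP response element known from ID genes and contains both shorter motifs. The Irf5 window held GGCGCC once, GTCT 3 times and the whole element once, its first base at position -97 from that start and thus 398 bases inside the annotated gene. It is shown because only 24 of 32851 promoter windows (0.0731%) held it. The element lies in this stretch of 30 bases (chr6:29526521-29526550, plus strand), with GGCGCC and each GTCT in capitals, the element ending with the first GTCT:
Irf5: ggcgaggGGCGCCgagctGTCTgcgGTCTc

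The combination was found in neither the Atoh8 nor the Unc5b window, and it was likewise missing from the windows of the BMP targets Id2, Id3 and Smad6. For the BMP targets Id1, Smad7 and Hey1 no window was at hand. The Atoh8 window held neither of the shorter motifs, which occur in 11.9% (GGCGCC) and 88% (GTCT) of all windows. The Unc5b window held GTCT once, on the opposite strand, and no GGCGCC. The 250 bases before the Unc5b start (chr10:60831582-60831831, minus strand), with this match in capitals, show how GC-rich and free of both motifs the rest of this stretch is, with 66.8% G or C:
Unc5b: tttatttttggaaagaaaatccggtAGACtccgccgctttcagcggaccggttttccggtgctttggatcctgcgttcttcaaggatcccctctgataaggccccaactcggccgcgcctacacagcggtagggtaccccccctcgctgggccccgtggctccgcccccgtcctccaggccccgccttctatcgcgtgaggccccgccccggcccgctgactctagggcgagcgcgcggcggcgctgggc

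A match of letters is not a site of binding, and these windows cover the start alone. The 24 windows with the element belong to 21 gene symbols, and besides IRF5, 8 array names of such genes were tested, KAT5, SDF4, EHD3, B3GALT6, AKAP2 and 4930503B20RIK among them, with TULP4 under a pair of names. Their log2 differences with BMP4 had a median of 0.06 and were at most 0.26, against 1.11 for IRF5. As IRF5 had been chosen by this difference, its larger value beside them was set by the selection. A part of the element in it was not tested.

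UNC5B, a receptor through which netrin-1 guides axons and vessel sprouts, was well above background on all arrays. Its intensities were 868.6 and 784.9 in -GFs medium, 2729.5 and 2193.2 with FGF2, and 1748.3 and 2545.8 with BMP4. All 4 arrays with a growth factor exceeded both -GFs arrays, and the FGF2 and BMP4 arrays overlapped. In log2 normalized intensity the groups had 9.63 ± 0.11, 11.29 ± 0.19 and 11.07 ± 0.25 (SD, n = 2 each), respectively. With FGF2, UNC5B rose 3.16-fold (log2 fold change 1.66, standard error 0.19, adjusted p = 0.00861 in limma), by 1.87 in replicate 1 and by 1.45 in replicate 2. This call held with each of the 6 arrays left out in turn (adjusted p from 0.0133 to 0.0897). With BMP4 the log2 difference was 1.44, or 2.72-fold, with 1.35 and 1.54 within the replicates. The difference between both treatments changed sign with the replicate, since FGF2 exceeded BMP4 by 0.53 on the log2 scale in replicate 1 and lay below it (-0.09) in replicate 2.

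MRGPRF was bright in -GFs medium and lower with either growth factor. Its intensities were 1682.3 and 1579 in -GFs medium, 400.6 and 625.9 with FGF2, and 563.9 and 769.3 with BMP4. Both -GFs arrays exceeded the remaining 4, among which FGF2 and BMP4 arrays overlapped. The log2 normalized intensity was 10.61 ± 0.12 (SD, n = 2) without growth factors, 9.01 ± 0.51 (SD, n = 2) after FGF2 and 9.39 ± 0.25 (SD, n = 2) after BMP4. The fall with FGF2 was 3.03-fold (log2 fold change -1.60, standard error 0.26, adjusted p = 0.0215 in limma), with -1.88 in replicate 1 and -1.33 in replicate 2. The call was lost when FGF2 replicate 1 was left out (-1.24, adjusted p = 0.115). With BMP4 the log2 difference was -1.22, 2.33-fold lower than in -GFs medium, with -1.31 and -1.13 within the replicates. Of the 10 names selected, MRGPRF was the only one lower with BMP4.

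In the FGF2 comparison, which did not choose the genes but shares its -GFs arrays with the comparison that did, limma thus called 2 of the 4 genes, UNC5B up and MRGPRF down, against 3.53% of all genes called in either direction. The same 2 were called in limma with the replicate block (adjusted p = 4.47e-07 and 4.99e-07, against 3.95% of all genes), and ATOH8 was not (adjusted p = 0.106), nor was IRF5 (0.291). The fit with the block is the one whose BMP4 calls chose the genes, and its estimate of the spread serves both comparisons. Its FGF2 p-values for the 4 genes are therefore not independent of the selection. All 4 genes had FGF2 arrays that did not overlap the -GFs arrays, as was the case for 53.7% of all genes, so that this says little with 2 arrays per group. For BMP4 this background was 24% of all genes, and it was the selection that set the count of the 4 genes there. The smallest two-sided p that an exact permutation test allows here, with 2 arrays on each side, is 0.333. Of the remaining names selected for BMP4, limma called CTGF with FGF2 (log2 fold change 1.57, adjusted p = 0.0621). GSE1 (0.72) and the ID1, ID2, ID3 and IDB2 probes (-0.71 to 0.37) were not called with FGF2.

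**Figure D2:**
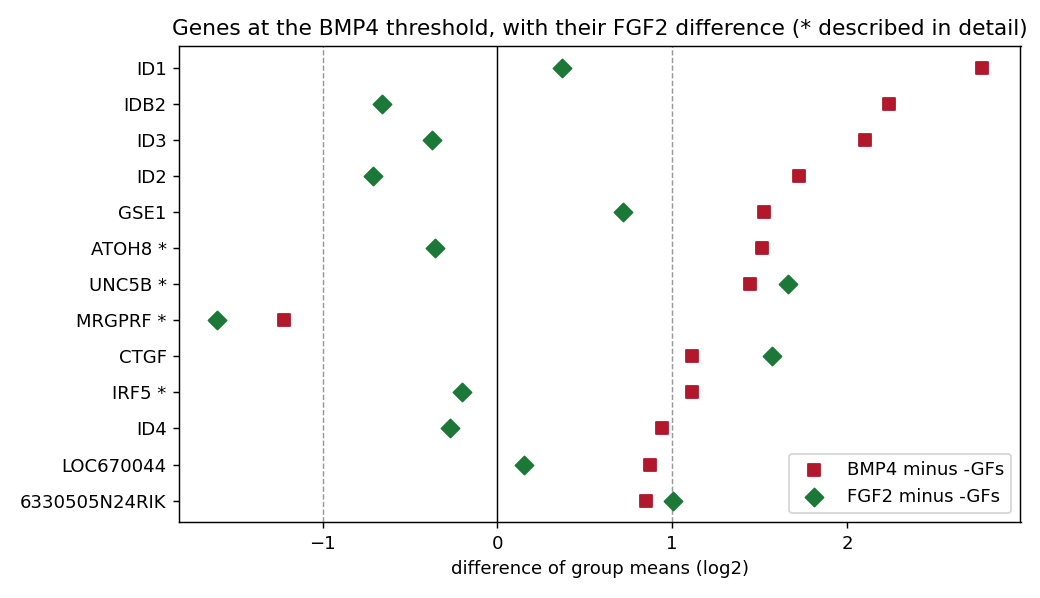
Difference of group means from -GFs medium (log2) with BMP4 (red squares) and FGF2 (green diamonds) for the 10 gene names called for BMP4 with the replicate block and the 3 just outside the threshold on the fold, ordered by group and size. Asterisks mark ATOH8, UNC5B, IRF5 and MRGPRF, dashed lines the threshold of 1, and both differences share the -GFs arrays. UNC5B, CTGF and MRGPRF lie beyond the threshold on the same side with both factors, whereas ATOH8 and IRF5 lie beyond it with BMP4 alone.

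The genes nearest in pattern were sought by the root mean square difference over the 6 arrays, after each gene had been centred on its mean. For ATOH8 the nearest of all genes tested was IRF5 (0.28 on the log2 scale), followed by ID4 (0.29) and ID2 (0.32), inhibitors that bind helix-loop-helix proteins without contacting DNA, and by KIF26B (0.40) and TIAM2 (0.42). For IRF5 they were ID4 (0.14), KIF26B (0.18), BTBD3 (0.25), TIAM2 (0.26) and PDZRN3 (0.26). ID4, KIF26B and TIAM2 stood near both genes, with BMP4 differences on the log2 scale of 0.94, 0.82 and 0.67, none of which passed the threshold on the fold. ID4 is also on the array under the older name IDB4, which differed by 0.34 with BMP4. For UNC5B the nearest was HEY1 (0.36), a NOTCH and BMP target with log2 differences of 0.83 with BMP4 and 0.88 with FGF2, before FMNL2 (0.38), DHX33 (0.38), CTGF (0.39) and FASTKD5 (0.40). For MRGPRF the nearest were PLEKHF1 (0.30), LOC100045343 (0.33), 4930572J05RIK (0.34), ADM (0.34) and CBX6 (0.35), whose BMP4 differences on the log2 scale went from -0.54 to -0.45. Among the 4 genes themselves, UNC5B lay 0.98 from ATOH8 and 0.82 from IRF5, and MRGPRF lay 1.14 from ATOH8 and 1.45 from UNC5B. The genes near to a gene were found on the same arrays, and nearness is a description of them.

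**Figure D3:**
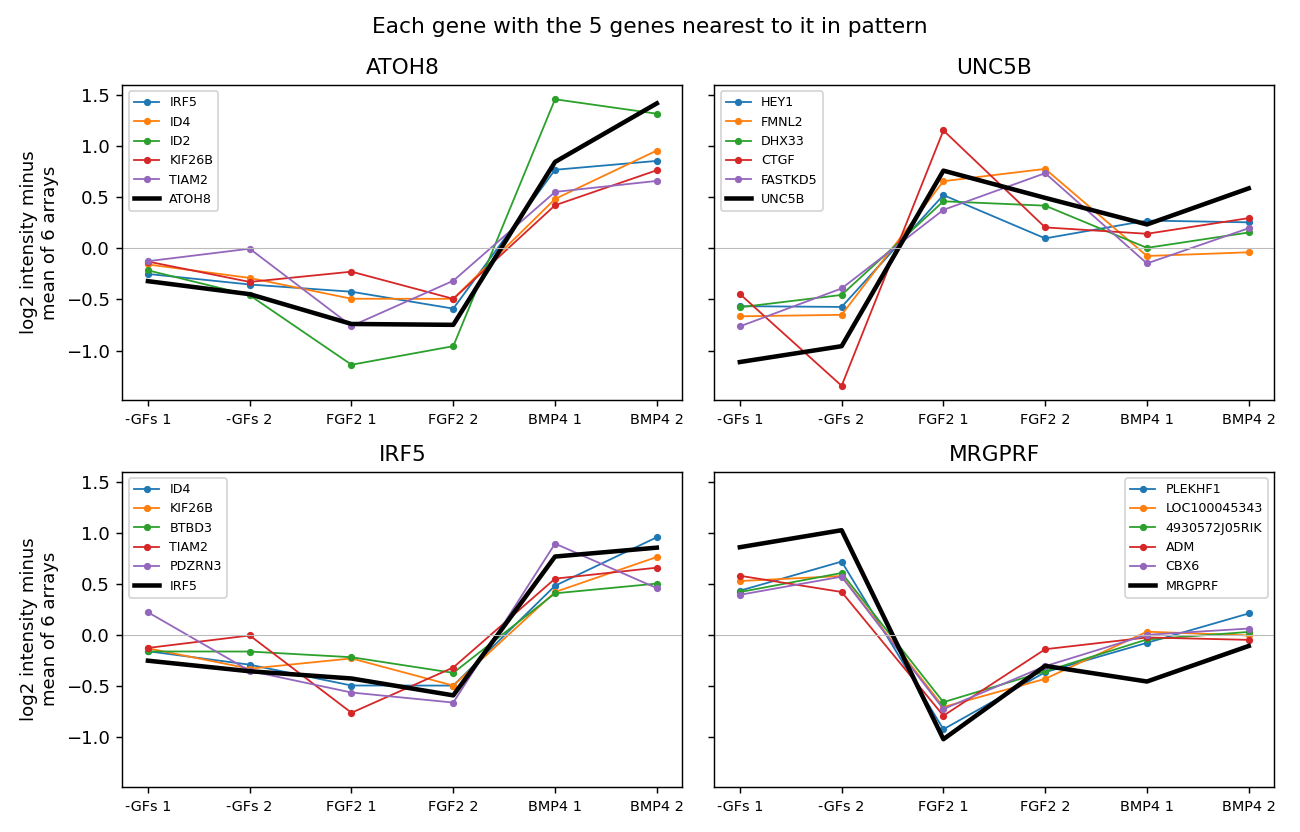
Log2 normalized intensity minus the mean of the 6 arrays, for ATOH8, UNC5B, IRF5 and MRGPRF (black) and the 5 genes with the smallest root mean square difference to each (coloured). The horizontal axis lists the arrays by condition and replicate number, and lines only join the points of a gene. The profiles of ATOH8 and IRF5 are highest on the BMP4 arrays and lowest on the FGF2 arrays, those of UNC5B and its neighbours are higher and those of MRGPRF and its neighbours lower with FGF2 than in -GFs medium.

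Few genes of the pathways around the 4 genes were called. Among BMP-SMAD target genes, 12 array names of 10 genes were tested, with a median log2 difference of 0.67 with BMP4 (0.00 over all genes tested) and of -0.06 with FGF2 (-0.02 over all genes). With BMP4 limma called 1 of them up, ID1, against 0.00842% of all genes. It called 4 with the replicate block, against 0.0842%, adding ID2, IDB2 and ID3, IDB2 being an older name of ID2 in RefSeq. At an unadjusted p under 0.05 limma found 8 of the 12 names with BMP4, against 1.81% of all genes (9 with the block, against 7.02%). Of the 12 names 6 are ID probes, which include all names called here. Those had been selected from this same comparison, so that the selection set the BMP4 calls and part of the counts at an unadjusted p. The other 6 names had a median of 0.19 with BMP4. These were HEY1 (0.83), SMAD6, an inhibitory SMAD (0.50), HEY2 (0.33), MSX1 (0.04), FST (0.00) and SMURF1 (-0.08), without a call. FGF2 gave 0 calls in this list, and 4 of 12 names had an unadjusted p under 0.05 in limma, against 23.3% of all genes (7 with the block, against 40.6%, without a call). Of 14 BMP receptors and SMADs, 9 were tested, among them BMPR1A, ACVR1, SMAD1 and SMAD5, with log2 differences from -0.25 to 0.41 with BMP4 and from -0.68 to 0.42 with FGF2. Limma called 0 of them with either factor, and 0 (BMP4) and 3 (FGF2) of the 9 had an unadjusted p under 0.05, or 1 and 5 with the block, without a call.

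ATOH8 acts together with other helix-loop-helix proteins. In a list of such partners and relatives, 11 array names were tested. With FGF2 limma called 1 of them, against 3.53% of all genes (1 with the block, against 3.95%). It was TWIST1, a mesenchymal factor, which rose with FGF2 (log2 fold change 1.18, standard error 0.15, adjusted p = 0.0106 in limma) and differed by 0.25 with BMP4. With BMP4 the calls were ID names alone, which had been selected from that comparison. At an unadjusted p under 0.05 limma found 2 of the 11 with FGF2 and 5 with BMP4, against 23.3% and 1.81% of all genes (6 and 6 with the block, against 40.6% and 7.02%). TWIST2 differed by 0.07 with FGF2 and by -0.29 with BMP4. Around UNC5B, 5 of 16 netrins and netrin receptors were tested, all of them lower with FGF2 in value (log2 differences from -0.75 to -0.06) but not called. They were NEO1, UNC5C, NTN4, GM484 (NTN5) and NTN2L (NTN3). With BMP4 they went from -0.19 to 0.16. In limma 2 of the 5 had an unadjusted p under 0.05 with FGF2 and 0 with BMP4, also with the block, against 23.3% and 1.81% of all genes (40.6% and 7.02% with the block). Around MRGPRF, 3 of 20 Mas-related receptors were tested, MRGPRE, MRGPRG and MRGPRX1, with log2 differences from -0.41 to 0.14 with FGF2 and from -0.17 to -0.06 with BMP4, and 0 calls in limma (0 at an unadjusted p under 0.05 for either factor, and 1 for FGF2 with the block).

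Markers of other cells were read beside these values. Of 7 endothelial markers, 5 were detected on no array, CDH5, PECAM1, TIE1, ERG and EMCN. TEK was detected on all 6 arrays, with log2 differences of 0.33 with BMP4 and -0.25 with FGF2. KDR was detected on 4 arrays (0.08 and 0.05), and neither gene was called. The summed normalized intensity of the list was 1190 to 1240 in -GFs medium, 1188 to 1188 with FGF2 and 1170 to 1426 with BMP4. Of the 4 markers of ES cells, NANOG and ZFP42 were detected on no array and POU5F1 on all. POU5F1 was close to the limit of detection, with intensities before normalization of 194.4 to 248.4. The lowest detected probes had 180.1 to 200.9, depending on the array. The sums of the list were 661.4 to 737.2 in -GFs medium, 663.2 to 675.5 with FGF2 and 752.9 to 755.2 with BMP4. The sum of the adipocyte markers (7 genes, FABP4 on no array) went with the replicate number rather than with the treatment. It was 3313 and 6771 without growth factors, 3157 and 6444 after FGF2 and 3520 and 7597 after BMP4, lower in replicate 1 each time. ADIPOQ differed most, with intensities before normalization of 156 and 2453.5 in -GFs medium, and CFD and LPL were also lower in replicate 1. PPARG, the only one detected on all arrays, went the other way in -GFs medium (2601.6 and 2134.3), but not with FGF2 or BMP4. Between replicates 2 and 1, ATOH8 differed by 0.57 on the log2 scale with BMP4 and by -0.13 in -GFs medium, and MRGPRF by 0.72 with FGF2. The part of the adipocyte difference in these values was not tested.

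**Figure D4:**
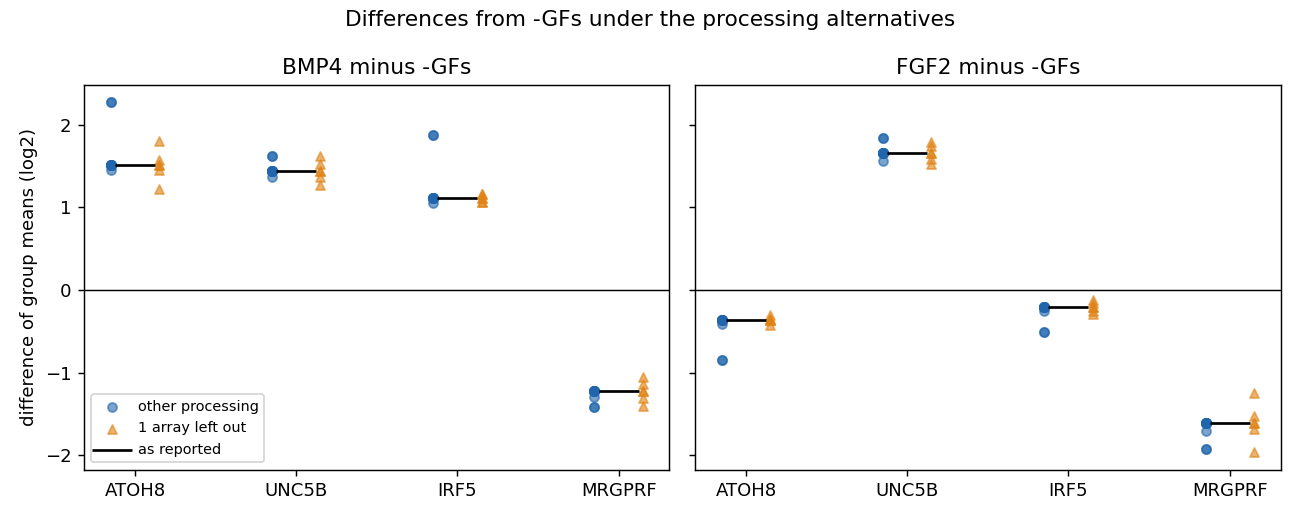
Difference of group means from -GFs medium (log2) for each gene under other normalizations, filters, probe summaries and models (blue circles) and with 1 array left out (orange triangles), beside the value given in the text (black line). No value crosses 0. The values farthest from the text for ATOH8 and IRF5, 2.27 and 1.87 with BMP4, are those of neqc, which subtracts a background estimate.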

How the data were processed

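The 6 samples are pure PA6 cultures after 3 h, grouped by their titles (-GFs, FGF2 and BMP4, n = 2). The authors deposited mean bead intensity per probe of Illumina MouseWG-6 v2.0 BeadChip arrays, not normalized, with detection p-values. The methods name BeadStudio and, for normalization, GenomeStudio V2011.01. Unused were 9 columns without a heading (values on 2045 lines) and 6 leftover lines. Gene names are the array's (21742 of 30854 match RefSeq of GRCm38.p6).

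The methods' cubic spline was rewritten in R 4.3.3 (452 quantiles, target the mean of 6 arrays). A probe was retained when both arrays of any group detected it (p under 0.05; 16111 probes), with the brightest probe per gene (11872 genes). limma 3.58.1 (lmFit, eBayes) was fitted on all arrays, with Benjamini-Hochberg adjustment over all genes, and was tested on simulated data. A gene was called when its log2 fold change exceeded 1 in size and its adjusted p was under 0.1. The number of arrays limits the precision.

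Each biological replicate has 1 well per condition by the labels, and arrays with the same number deviated together (correlations across genes 0.602, 0.741 and 0.579). The replicate block was an alternative, besides other normalizations, filters, probe summaries, models and left-out arrays. The 4 genes and the gene lists were chosen with earlier results of these data known. The genes named are these 4, the other genes called for BMP4 with the block and the 3 next in size below the threshold, list and marker genes, and the 5 genes nearest in pattern to each.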

Additional observations from a re-analysis of the deposited data

How the results depend on the processing

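Over 18 alternatives, none of the differences of ATOH8, UNC5B, IRF5 and MRGPRF from -GFs medium changed sign (IRF5 has no value when detection on all 6 arrays is required). With neqc the BMP4 differences on the log2 scale were 2.27 for ATOH8, 1.87 for IRF5 and -1.41 for MRGPRF, the same with neqc and the replicate block, which were combined only after the data had been seen. Neqc also gave larger FGF2 differences, -0.85 for ATOH8 and -0.50 for IRF5, with adjusted p-values in limma of 0.147 and 0.263 (0.0562 and 0.111 with the block), both within the threshold on the fold. Leaving out 1 array gave 1.23 to 1.80 for ATOH8, 1.27 to 1.62 for UNC5B, 1.06 to 1.16 for IRF5 and -1.40 to -1.05 for MRGPRF with BMP4, and -0.42 to -0.30, 1.53 to 1.79, -0.29 to -0.12 and -1.96 to -1.24 with FGF2. The FGF2 call of MRGPRF was lost without FGF2 replicate 1, the lone array of a group being assumed to vary like the others. Among these alternatives, all fitted with limma and the replicate block included, no other FGF2 call of the 4 genes was gained or lost.

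Over all genes, limma called 271 higher and 148 lower with FGF2, 432 and 362 with neqc, and 623 and 520 with neqc and the replicate block. The counts were 0 and 0 with adjusted p-values of the methods' t-test, which is named there in general, limma being the test named for the arrays. UNC5B and MRGPRF were thus not called by that t-test either. With 1 array left out the counts went from 70 to 277 and from 33 to 174, being 121 and 58 without FGF2 replicate 1 and 70 and 33 without FGF2 replicate 2. The share of higher genes among those called with FGF2, 64.7%, was 54.4% with neqc and 49.9% with arrays scaled to the median. With BMP4, limma called 1 gene higher and 0 lower (215 had an unadjusted p under 0.05). It called 2 and 0 with detection on at least 1 array, without a detection filter, and with the trend and robust options, and 9 and 1 with the replicate block. The methods' t-test gave 7 and 1 at an unadjusted p under 0.05, and 0 and 0 after adjustment. With 1 array left out, 0 to 2 genes were higher, 0 when either -GFs array or BMP4 replicate 1 was missing. The cause of these changes was not tested. ATOH8 and IRF5 lie near the limit of detection outside the BMP4 arrays, which limits the precision of their differences.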
